A study of Homo sapiens with 6 samples.

Results

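The TRIM family of ubiquitin ligases was examined in the human ovarian cancer line A2780, with and without a hairpin against USP39, a ubiquitin-specific protease homologue that works in the spliceosome. Members were all genes of the count table whose symbol starts with TRIM followed by a number, which gave 67 of 16571 genes and 85 of 21368 transcripts. Of the 67 genes, 35 had enough counts to be tested, and 32 did not. In the tested genes the USP39 hairpin went with small shifts. At an adjusted p under 0.05, 9 TRIM genes rose and 2 fell (TRIM66 and TRIM28), and none of them moved beyond 2-fold. Together they are 31.4% of the 35, against 33.6% of all tested genes. The largest of these rises were in TRIM36, TRIM7 and TRIM21, and the call of TRIM36 was lost in 8 of 16 alternative analyses.

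TRIM proteins carry a tripartite motif of a RING finger, B-box zinc fingers and a coiled coil, followed by a C-terminal domain that differs between members and sets what they bind. The RING finger recruits an E2 enzyme and transfers ubiquitin, and members without it act as binding or regulatory proteins. Many members with a PRY/SPRY domain restrict viruses or tune the sensing of viral RNA, and transcription of several of them is known to rise with interferon. Members with a PHD finger and bromodomain bind chromatin and regulate transcription in the nucleus, COS-box members bind microtubules, and NHL members bind RNA or other proteins.

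The control group (pGIPZ-NC) held 3 libraries of A2780 cells infected with lentivirus that carried the control form of the pGIPZ hairpin vector, and the other group (shUSP39) held 3 libraries of cells infected with lentivirus that carried a hairpin against USP39. According to the study's methods, infected cells were selected with puromycin, and both groups share the infection. The labels do not say which hairpin was used, so the construct is known only by its target, and the level of USP39 was not analysed here, which leaves the labels without that check. The study calls its RNA-seq samples biologically independent, while the labels give only replicate numbers, and p-values measure the spread between these libraries.

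The libraries held between 28294819 and 32939264 counts, of which TRIM genes took 0.374% to 0.397%. Replicates 2 and 3 of shUSP39 stood apart from the other 4 libraries in the number of genes with any count, which was 15446 and 14890 against 12662 to 12819. The labels describe the cells as serous ovarian. Of the epithelial markers, KRT18 had 676 to 711 counts in the controls and 932 to 1075 in shUSP39. KRT8 went the other way, with 26 to 37 counts in the controls and 0 to 3 in shUSP39. EPCAM had at most 6 counts and CDH1 at most 1. Of the serous markers, PAX8 had at most 6 counts and SOX17 at most 3. MUC16 had 5, 1 and 1 counts in the controls and 6, 150 and 71 in shUSP39. The leukocyte markers PTPRC, CD3E and CD14 had at most 7, 5 and 5 counts. The endothelial markers PECAM1, VWF and CDH5 had at most 5, 40 and 13 counts. The epithelial marker KRT19 had 616 to 836 counts in the controls and 51 to 68 in shUSP39. Of the fibroblast markers, COL1A2 had 33178 to 38505 and 13203 to 14969, and DCN had 22 to 49 and 0 to 6, while COL1A1 and PDGFRB overlapped between the groups. The part of these marker differences in the TRIM results was not tested.

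The interferon-stimulated response element is the DNA site through which interferon signalling acts on many promoters, so its core was searched in the promoters of the members, in a window of 300 bases (250 before and 50 after the start of transcription). The core was taken as GAAA, then any 2 bases, then GAAA, on either strand. It was found in 10 of the 53 members that had a promoter entry (18.9%) and in 659 of 15842 protein-coding genes (4.16%), and 14 members had no entry. The interferon-linked members with a match are shown, since they can be read against their counts further on. Each stretch has 30 bases from RefSeq on GRCh38.p14, is written 5′ to 3′ on the strand of the gene, and has the matching bases in capitals. A match on the opposite strand reads as TTTC, 2 bases, TTTC.
TRIM26: cgcctgaTTTCAGTTTCCATTTCgctgccc
TRIM14: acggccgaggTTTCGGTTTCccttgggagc
TRIM21: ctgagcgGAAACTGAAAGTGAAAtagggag
TRIM5: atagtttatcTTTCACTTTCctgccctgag
TRIM34: gccccaaaaaTTTCACTTTCatttctcagg
TRIM69: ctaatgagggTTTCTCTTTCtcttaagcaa
These stretches lie at chr6:30213578-30213607 (minus strand, TRIM26), chr9:98119229-98119258 (minus strand, TRIM14), chr11:4393663-4393692 (minus strand, TRIM21), chr11:5685082-5685111 (minus strand, TRIM5), chr11:5624901-5624930 (plus strand, TRIM34) and chr15:44736456-44736485 (plus strand, TRIM69). TRIM21 and TRIM26 each held 2 overlapping matches, and the other 4 genes held 1. The match of TRIM21 began 18 bases after its start of transcription, and those of the other genes lay before it. No match was found in the windows of TRIM25, TRIM38 and TRIM56, and TRIM22 had no entry.

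Whether the TRIM genes changed with the USP39 hairpin was tested with edgeR's quasi-likelihood test over all 10695 genes that passed the filter. With a limit of 0.05 on the Benjamini-Hochberg adjusted p and of 2 on the fold, 6.81% of all tested genes were called and no TRIM gene was (0 of 35). At an unadjusted p under 0.05 and beyond 2-fold there was 1, TRIM5, and the DESeq2 Wald test and limma-voom each called 1, TRIM49B and TRIM5 respectively. Without the limit on the fold, 11 TRIM genes passed the adjusted p (31.4% of the 35), against 33.6% of all tested genes. Of these, 9 were higher in shUSP39 (25.7%, background 16.1%) and 2 were lower (5.71%, background 17.5%). Their median absolute log2 fold change was 0.32, against 0.39 over all genes past the same limit. The median log2 fold change was 0.08 over the 35 TRIM genes and 0.01 over all tested genes. The libraries of the groups did not overlap in 14 TRIM genes (40.0%), against 44.2% of all tested genes, and 10 of the 11 were among them.

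**Figure D1:**
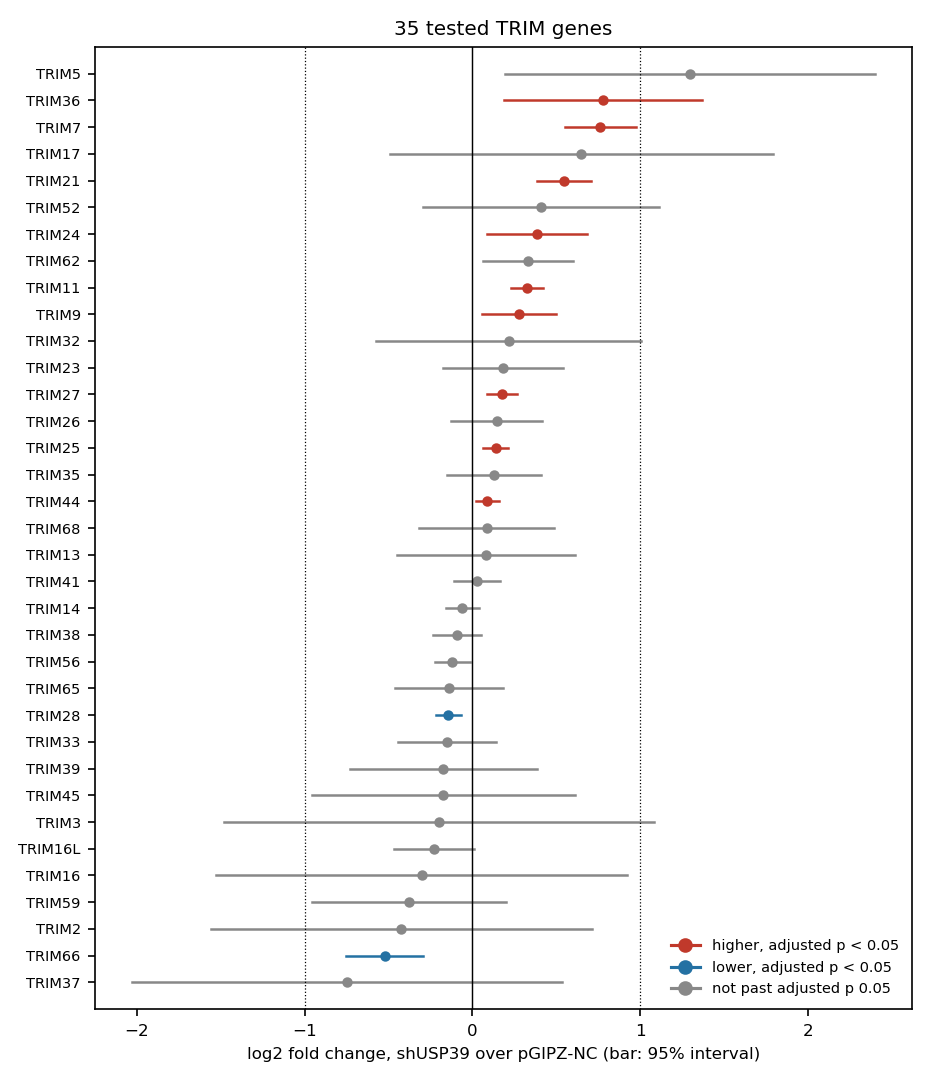
Log2 fold change of the 35 tested TRIM genes, shUSP39 over pGIPZ-NC (x axis), with 1 gene per line and bars for the 95% interval; red and blue mark genes higher and lower at an adjusted p under 0.05, and dotted lines mark 2-fold. The 9 red genes lie between 0.09 (TRIM44) and 0.78 (TRIM36), the 2 blue genes lie at -0.14 (TRIM28) and -0.52 (TRIM66), and the widest intervals belong to genes with few counts, such as TRIM5 and TRIM37.

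The list taken for the PRY/SPRY class had 27 members in the table and made up 15 of the 35 tested genes. Of these, 5 rose (TRIM7, TRIM21, TRIM11, TRIM27 and TRIM25) and none fell, with a median log2 fold change of 0.15. This is 33.3% higher, against 25.7% of the 35 tested TRIM genes and 16.1% of all tested genes. The share depends on the list. TRIM14, TRIM16 and TRIM16L were listed only as members without a RING finger, whatever their C-terminal domain. Their log2 fold changes were -0.06, -0.30 and -0.23, and none passed. A further 9 members were in no class and were not tested. TRIM7, a ligase that binds glycogenin and has been linked to the restriction of enteroviruses, had 11.6, 11.8 and 11.4 CPM (counts scaled to the library total after TMM adjustment) in the controls and 20.4, 20.03 and 18.5 CPM in shUSP39. The groups were far apart compared with their spread, at 11.6 ± 0.197 and 19.6 ± 1.00 CPM (SD, n = 3), and TRIM7 rose by 0.76 on the log2 scale (SE 0.10, edgeR adjusted p = 1.40e-06), which is 1.70-fold with a 95% interval of 1.46 to 1.96. TRIM21, the cytosolic antibody receptor that sends antibody-coated particles to the proteasome, lies at chr11:4406127-4414932 (GRCh37, minus strand) and had 24.8, 25.6 and 25.9 CPM in the controls and 38.6, 37.8 and 34.8 CPM in shUSP39. It rose by 0.54 (SE 0.08, edgeR adjusted p = 3.62e-06), or 1.46-fold (interval 1.30 to 1.63).

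TRIM11, which has been linked to the clearance of misfolded proteins, had 126, 131 and 125 CPM in the controls and 152, 166 and 161 CPM in shUSP39, and rose by 0.32 (SE 0.05, edgeR adjusted p = 3.80e-06). TRIM27, first known as the RET finger protein, had 249.0, 246 and 274 CPM in the controls and 282, 288 and 298 CPM in shUSP39, and rose by 0.18 (SE 0.04, edgeR adjusted p = 0.00185). TRIM25, the ligase that attaches ubiquitin chains to the RNA sensor RIG-I, had 335, 334 and 348 CPM in the controls and 375, 378 and 365 CPM in shUSP39, and rose by 0.14 (SE 0.04, edgeR adjusted p = 0.00327). In all of these 5 genes every shUSP39 library was above every control library. The steps differed in size, and those of TRIM27 and TRIM25 were 1.13-fold and 1.10-fold.

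The other tested members of the PRY/SPRY list did not pass. TRIM62 was closest, with a log2 fold change of 0.33 and an edgeR adjusted p of 0.0506, and its groups overlapped. It passed in 7 of 16 alternatives, among them other scalings and a stricter filter. TRIM35 (0.13), TRIM68 (0.08), TRIM65 (-0.14) and TRIM39 (-0.17) had small log2 fold changes within overlapping groups. TRIM41, a close neighbour of TRIM7 on chromosome 5, was at 0.03 (adjusted p = 0.812), with an interval from -0.11 to 0.16. On GRCh37, TRIM7 lies at chr5:180620924-180632293 on the minus strand, TRIM41 at chr5:180649499-180662808 on the plus strand and TRIM52 at chr5:180681077-180688151 on the minus strand. TRIM52 had a log2 fold change of 0.41 (adjusted p = 0.396). TRIM11 (chr1:228581374-228594536) and TRIM17 (chr1:228595636-228604562) are likewise neighbours, both on the minus strand. TRIM17 had 16, 12 and 20 counts in the controls and 7, 36 and 32 in shUSP39, so its groups overlapped, and its log2 fold change of 0.65 did not pass (adjusted p = 0.407). None of these listed positions overlap. Whether counting used strand is not stated, so reads of other transcripts that overlap on opposite strands could not be told apart.

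**Figure D2:**
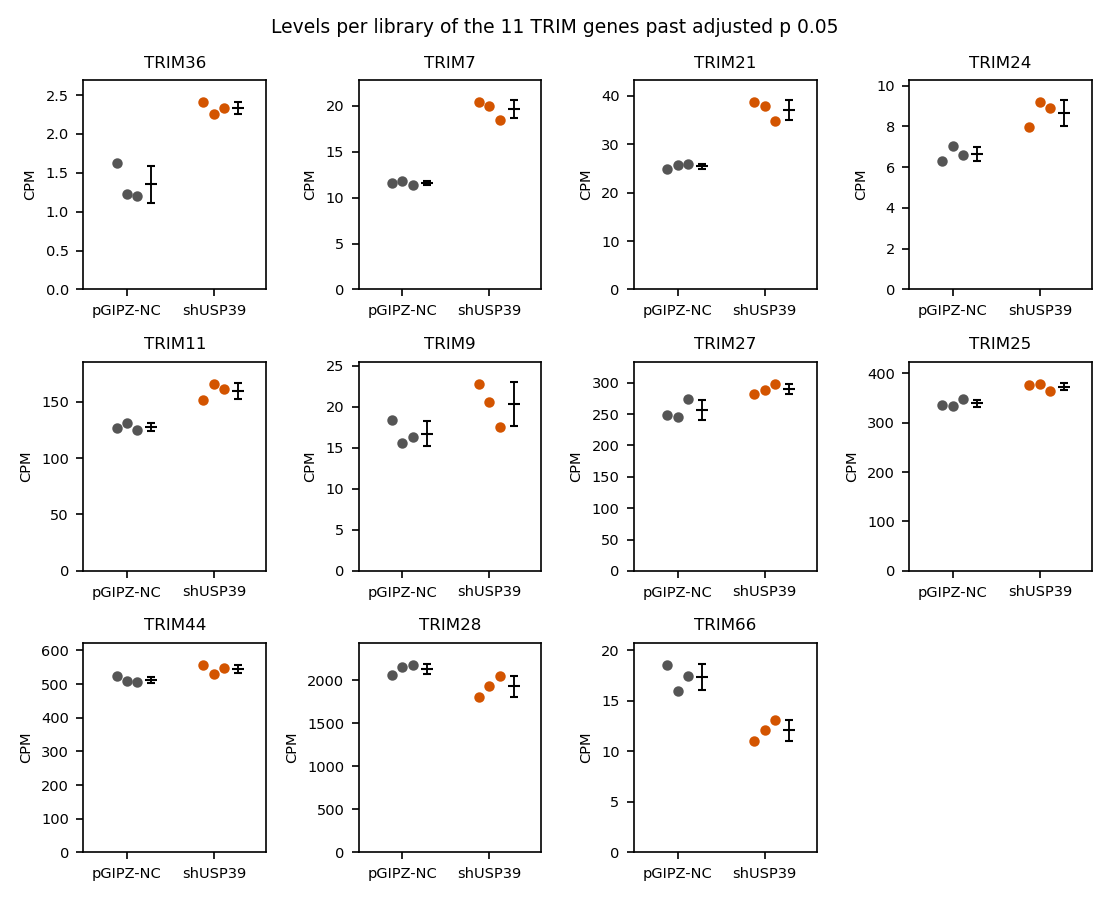
Level in CPM (y axis, from 0) of the 11 TRIM genes past an adjusted p of 0.05, with 1 point per library (3 pGIPZ-NC in grey, 3 shUSP39 in orange) and a bar for the mean and SD of each group. The groups do not overlap in 10 genes, and in TRIM9 the lowest shUSP39 library (17.5 CPM) is below the highest control (18.4 CPM).

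A list was taken of 10 members whose transcription is known to rise with interferon. All of these were in the table, and 7 were tested, of which 2 rose, TRIM21 and TRIM25, and none fell. With 7 genes tested, 2 is 28.6%, against 16.1% of all tested genes. The median log2 fold change of the 7 was 0.14, and without TRIM21 and TRIM25 it was -0.06. TRIM5, the retrovirus capsid restriction factor, had 18, 4 and 15 counts in the controls and 33, 40 and 19 in shUSP39. These groups did not overlap but lay close at their edges, and the log2 fold change of 1.29 had an interval from 0.19 to 2.40 (edgeR adjusted p = 0.0653). TRIM14, an adaptor of the mitochondrial antiviral signal, had 127, 135 and 126 CPM in the controls and 122, 124 and 126 CPM in shUSP39. Its log2 fold change was -0.06 with an interval from -0.16 to 0.04 (adjusted p = 0.362), so a change as large as that of TRIM21 lies outside its interval.

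TRIM26, a ligase linked to the turnover of nuclear IRF3, had a log2 fold change of 0.15 (adjusted p = 0.436), TRIM38 of -0.09 (adjusted p = 0.343) and TRIM56, which acts in the sensing of cytosolic DNA and RNA, of -0.12 (adjusted p = 0.0693). TRIM56 passed as lower in 3 of 16 alternatives, which were the replicate number as a block (adjusted p = 0.0281), without pGIPZ-NC replicate 1 (0.0494) and without shUSP39 replicate 1 (0.0173). The remaining 3 were near or under the floor of 3 counts in several libraries and were not tested. TRIM22, one of the members most raised by interferon in many cells, had 0 counts in all 3 controls and 0, 0 and 3 in shUSP39. TRIM34 had 5, 0 and 0 counts in the controls and 6, 2 and 1 in shUSP39, and TRIM69 had 4, 9 and 12 and then 6, 4 and 11. Read against the promoter stretches, 1 of the 4 tested interferon-linked genes with a match rose (TRIM21) and 3 did not pass (TRIM5, TRIM14 and TRIM26), while TRIM25, without a match, rose. The other members with a match were TRIM2, TRIM16, TRIM44 and TRIM64C.

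All 4 PHD-bromodomain members were tested, and they divided: TRIM24 rose, TRIM28 and TRIM66 fell, and TRIM33 did not pass. This is 1 of 4 higher and 2 of 4 lower, against 16.1% higher and 17.5% lower over all tested genes. Whether so small a class differs from all tested genes was not tested. TRIM28 (KAP1), the corepressor that KRAB zinc finger proteins bring to DNA, lies at chr19:59055431-59062089 (GRCh37, plus strand) and had 2060.1, 2157 and 2171 CPM in the controls and 1803, 1929 and 2051 CPM in shUSP39. The groups did not overlap, but the highest shUSP39 library came close to the lowest control, and the log2 ratios of the shUSP39 libraries to the control mean were -0.24, -0.14 and -0.05. TRIM28 fell by 0.14 (SE 0.04, edgeR adjusted p = 0.00294), to 0.905 of the control level (interval 0.860 to 0.953). It alone made up 54.0%, 55.0% and 55.0% of all TRIM counts in the controls and 48.5%, 50.3% and 52.0% in shUSP39.

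TRIM66, a relative of TRIM28 that lacks the RING finger (chr11:8633584-8704241, GRCh37, minus strand), fell by 0.52 on the log2 scale (SE 0.11, edgeR adjusted p = 0.000496). It had 18.5, 15.98 and 17.5 CPM in the controls and 11.0, 12.1 and 13.1 CPM in shUSP39, a fold of 0.696 (interval 0.594 to 0.816). TRIM24, a coregulator of nuclear receptors and a ligase for p53, had 6.30, 7.02 and 6.62 CPM in the controls and 7.97, 9.18 and 8.89 CPM in shUSP39. It rose by 0.38 (SE 0.14, edgeR adjusted p = 0.0402), and this call was lost in 8 of 16 alternatives. TRIM33, which acts on SMAD4 in TGF-beta signalling, had 7.94, 8.13 and 8.04 CPM in the controls and 7.59, 7.25 and 6.86 CPM in shUSP39. Its libraries were all lower in shUSP39, but its log2 fold change of -0.15 had an interval from -0.44 to 0.14 (adjusted p = 0.456).

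Of the 8 COS-box members, which bind microtubules, 2 were tested and both rose. With 2 genes tested this is 100%, against 16.1% of all tested genes. TRIM36 (chr5:114460459-114516243, GRCh37, minus strand) had 52, 40 and 34 counts in the controls and 77, 69 and 69 in shUSP39, and rose by 0.78 (SE 0.29, edgeR adjusted p = 0.0371). Its interval of 1.14 to 2.58-fold was wide, since these are small counts, and the call was lost in 8 of 16 alternatives. TRIM9, best known from neurons, had 18.4, 15.5 and 16.3 CPM in the controls and 22.8, 20.6 and 17.5 CPM in shUSP39, and rose by 0.28 (SE 0.11, edgeR adjusted p = 0.0468) with overlapping groups, a call that was lost in 7 of 16 alternatives, DESeq2 and limma-voom among them. The other 6 (TRIM42, TRIM46, TRIM54, TRIM55, TRIM63 and TRIM67) had at most 13 counts in any library.

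None of the 3 tested NHL members passed. TRIM2 had a log2 fold change of -0.42, TRIM3 of -0.20 and TRIM32 of 0.21. Each of these intervals reached 2-fold in at least 1 direction, so moderate changes were not detectable at these counts. TRIM71 (LIN41) had 7, 1 and 1 counts in the controls and 1, 7 and 5 in shUSP39 and was not tested. Of the 5 tested members without a RING finger, TRIM44 rose and TRIM66 fell. This is 1 of 5 in each direction, against 16.1% higher and 17.5% lower over all tested genes. TRIM44, which has a deubiquitinase-like zinc finger, had 524, 508 and 505 CPM in the controls and 555, 531 and 546 CPM in shUSP39, and rose by 0.09 (SE 0.03, edgeR adjusted p = 0.0453), which is 1.06-fold, and this call was lost in 7 of 16 alternatives. TRIM16L was at -0.23 (adjusted p = 0.14) and TRIM16 at -0.30 (adjusted p = 0.747), and since these genes are near-identical copies over part of their length, the share of reads between them is uncertain. Of the 7 tested members of the remaining class, listed only as others (TRIM13, TRIM23, TRIM37, TRIM45, TRIM52, TRIM56 and TRIM59), none passed. Their log2 fold changes ran from -0.75 in TRIM37, a ligase of centrosomes and peroxisomes with 8 to 26 counts per library, to 0.41 in TRIM52.

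Over the 24 tested members that did not pass, the 95% interval stayed within 2-fold in both directions in 16 and reached 2-fold in 8. A change beyond 2-fold therefore lay outside the interval for genes such as TRIM14, TRIM41, TRIM38 and TRIM33, and within it for TRIM5, TRIM17, TRIM37 and the NHL members.

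Levels were compared between members per length, as CPM per kilobase of the longest coding transcript, which 34 of the 35 tested genes had. TRIM28 was highest, with a control mean of 633, followed by TRIM27 at 86.6, TRIM25 at 59.0, TRIM44 at 39.4 and TRIM14 at 28.9. In single libraries these 5 did not overlap. TRIM28 had at least 535.9, TRIM27 between 83.1 and 100.6, and TRIM25 between 58.1 and 65.9. TRIM44 had between 38.8 and 42.7, and TRIM14 at most 30.2. The median over the 34 was 1.55, and TRIM2 was lowest at 0.0916. The order moved together with the number of curated transcripts that RefSeq lists for a gene. The 9 tested members with 1 curated transcript had a median of 22.1 and the 25 with more had a median of 0.783, and over all tested genes the medians were 16.3 (n = 3973) and 1.46 (n = 6146). The table held 1 of 4 curated transcripts of TRIM5, 2 of 23 of TRIM9, 2 of 11 of TRIM37 and 2 of 32 of TRIM2, and how reads shared by several transcripts were counted is not stated. Levels of members with several transcripts may therefore be too low, and the part of this in the order was not tested.

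**Figure D3:**
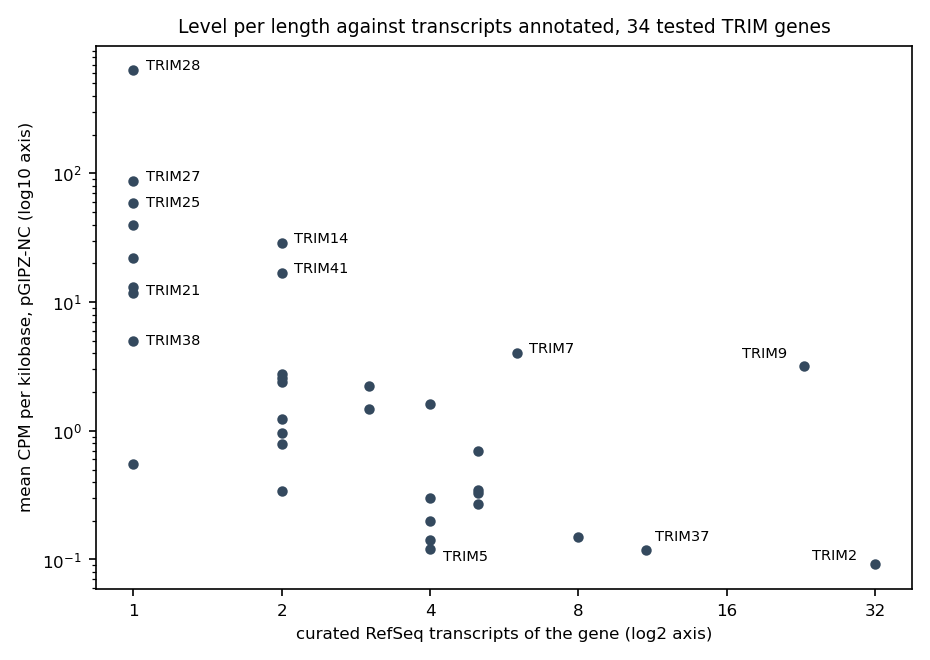
Mean control level of 34 tested TRIM genes in CPM per kilobase (y axis, log10) against the number of curated RefSeq transcripts of the gene (x axis, log2), with 1 point per gene. Members with 1 curated transcript, such as TRIM28, TRIM27 and TRIM25, have a median of 22.1, and those with more, such as TRIM5, TRIM37 and TRIM2, a median of 0.783.

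Among the 9 tested members with 1 curated transcript (TRIM11, TRIM21, TRIM25, TRIM27, TRIM28, TRIM38, TRIM44, TRIM56 and TRIM59), 6 passed the adjusted p, 5 higher and 1 lower. This is 66.7%, and over all tested genes with 1 curated transcript it was 48.1%. Levels in this set can be read without splitting among curated transcripts. They ran in the controls from 633 CPM per kilobase in TRIM28 to 0.554 in TRIM59, with TRIM21 at 13.1 and TRIM56 at 11.9. TRIM21 and TRIM56 were neighbours in this order in the controls, and in shUSP39 they stood at 19.2 and 10.9.

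Since USP39 is a splicing factor, the shares of transcripts within a gene were tested where a member had at least 2 transcripts past the filter, which held for TRIM7, TRIM9, TRIM13 and TRIM39. None passed edgeR's usage test at an adjusted p under 0.05, against 3.69% of all 1628 genes so tested, and TRIM7 alone was under 0.05 unadjusted (adjusted p = 0.304). The main TRIM7 transcript, NM_033342.3, took 93.4 ± 1.70% of the TRIM7 counts in the controls and 89.6 ± 2.00% in shUSP39 (SD, n = 3), and it rose by itself (log2 fold change 0.70, edgeR adjusted p = 1.1e-05). The minor transcript NM_203296.1 took 4.09 ± 0.673% and 7.18 ± 2.59%, and it also rose by itself (log2 fold change 1.57, edgeR adjusted p = 0.00617). In TRIM9, NM_052978.4 rose (0.43, adjusted p = 0.0293), while NM_015163.5 was at 0.16 (adjusted p = 0.436).

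TRIM2, a ligase of neurons that binds neurofilament light chain, is named here after its values were seen. Its transcript NM_001130067.1 had 3, 7 and 2 counts in the controls and 21, 10 and 5 in shUSP39, and NM_001302694.1 had 24, 11 and 17 and then 9, 2 and 1. The second took 79.8 ± 16.2% of TRIM2 counts in the controls and 21.1 ± 7.70% in shUSP39 (SD, n = 3), with no overlap, and fell by 2.09 on the log2 scale in the test of single transcripts (edgeR adjusted p = 0.0330). The first was below the filter, so usage was not tested with all libraries. With 1 library left out, edgeR's usage test passed without pGIPZ-NC replicate 2 (adjusted p = 0.0302) and without shUSP39 replicate 3 (adjusted p = 0.0457). It did not pass without pGIPZ-NC replicate 1 (0.180) or pGIPZ-NC replicate 3 (0.173). Usage also did not pass without shUSP39 replicates 2 and 3, which leaves 1 shUSP39 library. The 2 transcripts are among the 32 curated transcripts of TRIM2.

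The 32 members below the filter had at most 29 counts in any library, and 11 of them never had more than 3. Many are the testis-linked and recently duplicated members of chromosome 11, where 19 members lie and 6 were tested. In the libraries in order, pGIPZ-NC 1 to 3 and shUSP39 1 to 3, the number of TRIM genes with any count was 44, 45, 47, 48, 64 and 61. The excess in replicates 2 and 3 of shUSP39 came with 12 members that had no count in the other 4 libraries (17.9% of 67), against 14.7% of all 16571 genes. These 12 were TRIM15, TRIM22, TRIM42, TRIM48, TRIM49C, TRIM49D1, TRIM49D2, TRIM51, TRIM63, TRIM64B, TRIM64C and TRIM67. They summed to 44 counts in replicate 2 and 30 in replicate 3, with at most 11 for a gene (TRIM42), and 8 of them are on chromosome 11. The part of the larger number of detected genes in these 2 libraries was not tested. TRIM49B had 0 counts in the controls and 12, 11 and 1 in shUSP39, so it was seen in shUSP39 replicate 1 too. The TRIM49, TRIM43 and TRIM64 members and the TRIM73 and TRIM74 genes are near-identical copies, and TRIM39-RPP21, with 2 to 5 counts, is a readthrough transcript, so their counts are uncertain.

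**Figure D4:**
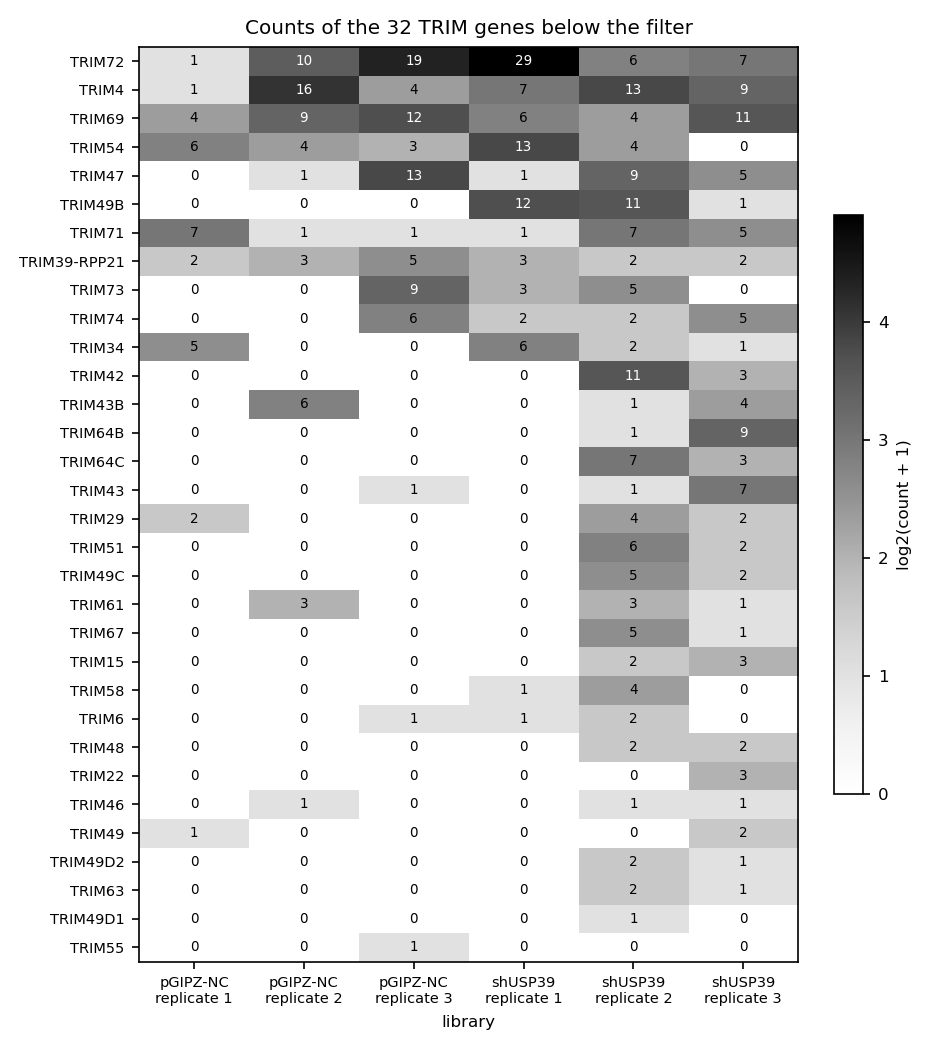
Counts of the 32 TRIM genes below the filter (rows) in each of the 6 libraries (columns), with the count printed in each cell and the shade giving log2(count + 1). Replicates 2 and 3 of shUSP39 have entries in 12 genes that are empty in the other 4 libraries, with at most 11 counts.

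With replicates 2 and 3 of shUSP39 left out, so that replicate 1 was set against the 3 controls and assumed to vary like them, 7 of 40 tested TRIM genes passed (17.5%), against 19.7% of all genes in the same fit. These were TRIM7, TRIM9, TRIM11, TRIM21 and TRIM25, which were higher, and TRIM28 and TRIM66, which were lower. All of the 7 were among the 11. TRIM24, TRIM27, TRIM36 and TRIM44 kept their direction and did not pass.

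Other genes of the pathways in which TRIM ligases act were read from lists. Of 6 TRIM proteins that carry other symbols, 3 were tested, of which 1 rose and 1 fell. This is 33.3% in each direction, against 16.1% higher and 17.5% lower over all tested genes. PML, which forms nuclear bodies, had 6.56, 7.42 and 6.73 CPM in the controls and 9.47, 10.8 and 9.53 CPM in shUSP39, and rose by 0.53 (edgeR adjusted p = 0.00396). MID1, a COS-box protein, fell by 0.58 (adjusted p = 0.0381) with overlapping groups, and MID2 was at -0.80 (adjusted p = 0.17). Of 11 tested E1 and E2 enzymes that TRIM ligases use, none rose and 1 fell. This was UBE2N, the E2 of K63-linked chains, by 0.11 (edgeR adjusted p = 0.0144). The share lower is 9.09%, against 17.5% of all tested genes, and the median of the 11 was -0.05. Of 6 tested partners of TRIM28 in repression, none rose and 2 fell (33.3%, against 17.5% of all tested genes). These were the heterochromatin proteins CBX1 (by 0.25, adjusted p = 0.00295) and CBX5 (by 0.44, adjusted p = 0.0039). The methyltransferase SETDB1 was at -0.08 (adjusted p = 0.766), CBX3 at -0.06, ATF7IP at -0.48 and CHD3 at 0.38, and none of them passed.

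The RNA sensors that TRIM25, TRIM38 and others regulate had larger fold changes than any tested TRIM gene. Of 6 tested genes of the RIG-I path, 2 rose (33.3%, background 16.1%), and both were beyond 2-fold, as 4.53% of all tested genes were in that direction. DDX58, which encodes RIG-I, had 17.7, 14.6 and 11.4 CPM in the controls and 47.1, 45.0 and 39.4 CPM in shUSP39 (log2 fold change 1.59, edgeR adjusted p = 6.03e-10). IFIH1, which encodes MDA5, had 4.14, 3.60 and 4.68 CPM in the controls and 27.9, 30.5 and 30.1 CPM in shUSP39 (2.83, adjusted p = 1.45e-16). IRF7 was at 1.11 with overlapping groups (edgeR adjusted p = 0.0529), MAVS at -0.21, TBK1 at -0.04 and IRF3 at 0.20, and none of them passed. Among genes of interferon signalling, IRF9 rose by 0.44 (adjusted p = 0.000754) and TYK2 fell by 0.19 (adjusted p = 0.0012). JAK1, with 1 transcript in the table, had 1 count over all 6 libraries. How reads shared by several transcripts were counted is not stated, so this count may be too low, which was not tested. All values here are levels of RNA in bulk cells, in which fewer cells that express a gene and less RNA per cell cannot be told apart.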

How the data were processed

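RNA-seq libraries of A2780 cells (3 pGIPZ-NC, 3 shUSP39) were grouped by their titles. The deposited table holds raw read counts per RefSeq transcript, made by the authors. The submitters' processing notes name HISAT2, Cufflinks and hg19 with no role, and the counter is not given in the sources used here. The authors' means, folds and p-values per transcript were not used. Counts were summed per symbol, after 46 symbols turned into dates were restored and 1 was left.

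Genes were compared between groups in edgeR 4.0.16 under R 4.3.3 (filterByExpr, TMM, robust quasi-likelihood, all 6 libraries, group as the only term) and Benjamini-Hochberg adjustment over 10695 genes, and transcript usage with diffSpliceDGE. Intervals are 95%. The floor was set at 3 counts, and intervals and floors cover counting error or spread between libraries only. The pipeline was tested on simulated data with changes of at least 2-fold set in 200 genes, of which 98% were recovered, with 8 false calls. The TRIM genes that passed changed by less than 2-fold, so this does not measure how well such changes are found. Total counts ran from 28294819 to 32939264. Replicates of a group differed by more than sampling noise (chi-square per degree of freedom 4.74 to 7.82).

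Members, classes and lists were chosen with earlier results of these data known. Named were members called beyond 2-fold, up to 12 others past the adjusted p whose groups do not overlap, all interferon-linked, PHD-bromodomain and NHL members, the 5 highest per length, members with changed usage, and near-identical or readthrough members. Other TRIM genes named in the text were chosen after their values were seen. Gene positions are from GENCODE release 44 on GRCh37, and promoters from RefSeq on GRCh38.p14. Deviations of same-numbered libraries correlated at 0.0688, 0.00477 and 0.0216, so the numbers were not taken as pairs. Alternatives used DESeq2 1.42.0, limma 3.58.1, other scalings, filters and a block, each library left out, and the highest transcript per gene. The list of interferon signalling genes is not reported here in full.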

Additional observations from a re-analysis of the deposited data

How the results depend on the processing

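The count of TRIM genes beyond 2-fold was 0 and became 1 with no filter and with the DESeq2 Wald test (TRIM49B in both), with limma-voom (TRIM5) and with the highest transcript of each gene (TRIM2, lower), and 2 with a limit of 1.5-fold (TRIM7 and TRIM36). With 1 library left out it ran from 0 to 1, with TRIM49B called without pGIPZ-NC replicate 1, 2 or 3 or shUSP39 replicate 3. The count past the adjusted p was 11, became 7 without shUSP39 replicates 2 and 3, ran from 8 to 13 with 1 library left out, and was between 8 and 13 under the other alternatives. With the replicate number as a block it was 13 (TRIM56, lower, and TRIM62 were added), and the numbers do not pair the libraries. The interferon-linked count was 2 or 3 throughout. The usage count was 0 and reached 1 (TRIM2) without pGIPZ-NC replicate 2 or shUSP39 replicate 3. With no filter and with the DESeq2 Wald test, the median over all genes moved to 0.12 (log2 fold change).

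Over 317 values of 20 TRIM genes, 276 kept direction and call, 31 lost the call, 5 gained it and 5 reversed. Of these 20 genes, 10 kept both throughout, among them TRIM7, TRIM21, TRIM11, TRIM66, TRIM28 and TRIM25. The calls of TRIM36 and TRIM24 were lost in 8 alternatives each, those of TRIM44 and TRIM9 in 7 each, and that of TRIM27 in 1 (without shUSP39 replicates 2 and 3, adjusted p = 0.104). Direction reversed in genes that had not passed: TRIM2 to 0.44 and TRIM32 to -0.015 without shUSP39 replicates 2 and 3, and TRIM3 to 0.10 without pGIPZ-NC replicate 1, to 0.09 without shUSP39 replicate 3 and to 0.60 without shUSP39 replicates 2 and 3 (with 1 library left out, TRIM3 ran from -0.89 to 0.10). The cause was not tested. Beyond these 20 genes, TRIM62 passed in 7 of 16 alternatives. Low counts limit some members, whose intervals reach 2-fold, and the parts of depth and of the way of counting in this were not tested.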
